A study of Mus musculus with 37 samples.

Results

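The comparison examined here is that of splenocytes exposed to the medium of macrophage-like cells that had received SPP1 with splenocytes exposed to the medium of such cells without it. It used 11 of the 37 libraries of the series, which were all those labelled as medium. Of these, 6 came from cultures with SPP1 (3 in normoxia and 3 in hypoxia) and 5 from cultures without it (replicates 2 and 3 in normoxia, 3 replicates in hypoxia). The macrophage-like cells were RAW264.7, a mouse line, and had been kept for 72 h at 21% oxygen (normoxia) or 1% oxygen (hypoxia), with SPP1 at 1 µg/mL or without it. Splenocytes of wild-type FVB mice were then exposed for 48 h, and brefeldin A, which blocks protein secretion, was added to all cultures before RNA was taken. The remaining libraries were 12 from splenocytes cultured with the RAW264.7 cells themselves (called cells), 12 with those cells after a wash (called washed) and 2 from naive splenocytes that had met neither.

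SPP1, or osteopontin, is secreted by macrophages and other cells and is bound by integrins and by CD44. Medium taken from treated macrophages carries what they secreted, together with any SPP1 still in solution, so this arm shows what reached the splenocytes without contact between the cells. A splenocyte suspension holds mainly lymphocytes, with fewer myeloid cells. The protocol names the collected splenocytes as the source of RNA, whereas the study also speaks of lymphocytes from the co-cultures, and a sorting step was not found in the sources used here. Fewer cells of a type and less RNA per cell cannot be told apart in such bulk samples.

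RNA was measured by sequencing the 3′ ends of polyadenylated transcripts, and the values were raw counts per gene ID. The alignment of these mouse libraries was to a human genome. An ID therefore counts those reads of mouse origin that fitted a human gene, and related genes may share reads. Genes are given by their Ensembl ID, since no table used here paired the IDs with names. For this reason neither the splenocyte label nor the functions of the genes could be checked. Total counts were 897879 to 1150995 in the 6 libraries with SPP1 and 1005768 to 1319225 in the 5 without, within the range of 631574 to 1337314 over all 37 libraries. Levels are CPM (counts scaled to a common library size after adjustment for composition), and 3 counts corresponded to a few CPM. Intervals for counting error are not given, because the spread between replicates exceeded it in every pair of medium replicates (chi-square per degree of freedom 3.19 to 42.3). The replicates without SPP1 were less alike, at 13.3 to 42.3, than those with SPP1, at 3.19 to 6.2.

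Among the 5 libraries without SPP1, 2 stood apart from the rest. Each library was placed on a line that ran from the mean of medium with SPP1 (position 0) to the mean of cells (position 1). The line used the 2377 of 5193 tested IDs (45.8%) called between those arms (edgeR, adjusted p-value under 0.05). That contrast gave the 5 libraries without SPP1 no weight. They were still part of the fit of all 37 libraries, and so of its filter, scaling and estimate of the spread. Medium hypoxia no-SPP1 replicate 1 lay at 0.652 and medium normoxia no-SPP1 replicate 3 at 0.605. The other 3 libraries without SPP1 lay at 0.138 (normoxia replicate 2), 0.031 (hypoxia replicate 2) and 0.115 (hypoxia replicate 3). The 6 libraries with SPP1, whose mean is 0 by construction, lay between -0.131 and 0.128. The pair was nearer to the naive libraries, at 0.737 and 0.800, and to the lowest cells library, at 0.705, than to the rest of its own arm. One of the pair was from hypoxia and the other from normoxia, their replicate numbers differ, and no label sets them apart. The counts of calls and the fold changes of the named IDs are therefore also given without them.

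**Figure D1:**
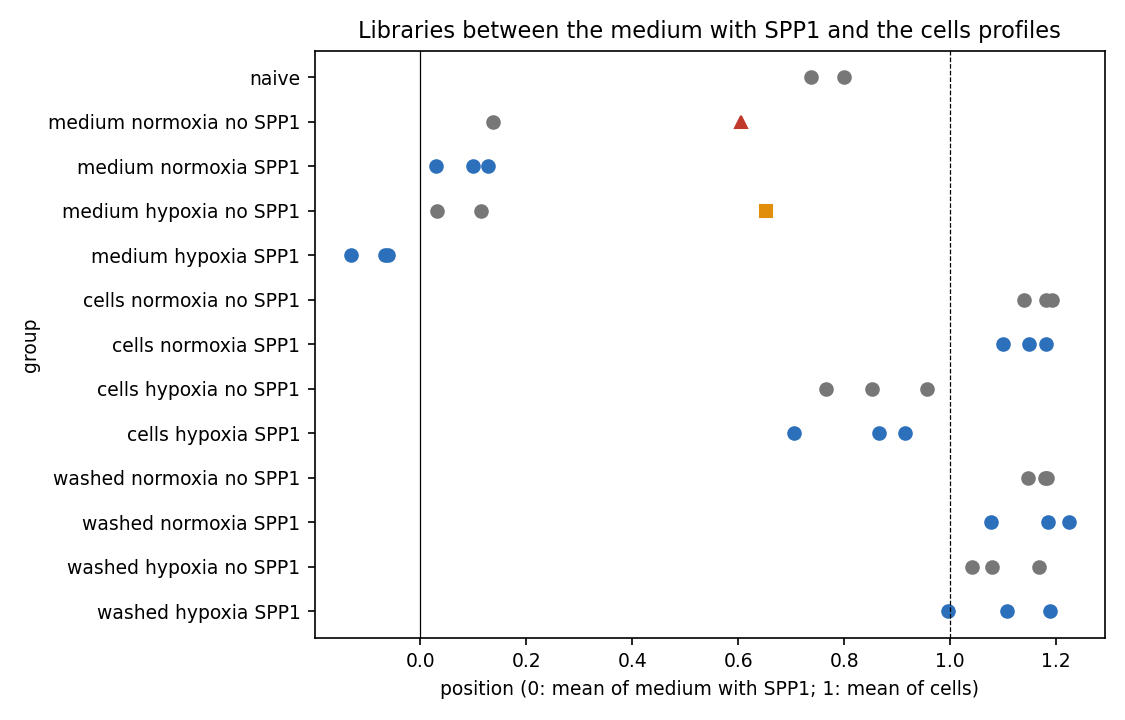
Position of each of the 37 libraries between the mean profile of medium with SPP1 (0, solid line) and that of cells (1, dashed line), over 2377 IDs, by group (blue: with SPP1, gray: without SPP1 or naive). The square and the triangle are medium hypoxia no-SPP1 replicate 1 at 0.652 and medium normoxia no-SPP1 replicate 3 at 0.605, the only medium libraries above 0.138.

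To find out which transcripts in splenocytes differed with SPP1 in the macrophage cultures, edgeR was used with 13 group means over the 37 libraries, and the differences in normoxia and hypoxia were averaged with equal weight. Since normoxia without SPP1 had 2 libraries and hypoxia 3, each of those normoxia libraries weighed more in the average. An ID was called when its adjusted p-value (edgeR's quasi-likelihood test with Benjamini-Hochberg adjustment over 5193 IDs) was under 0.05. Of the 5193 IDs, 13 (0.25%) were called, and all 13 were lower with SPP1. DESeq2 on the same IDs called 34, 9 higher and 25 lower. In edgeR, 478 IDs (9.2%) had an unadjusted p-value under 0.05, 166 higher and 312 lower. Without the 2 libraries that stood apart, 0 IDs were called and 268 had an unadjusted p-value under 0.05 (110 higher, 158 lower). The 13 IDs were still lower in that fit, with a median log2 fold change of -0.71 in place of -1.75. They had been chosen as lower with most of the same libraries, so their direction there describes that choice. With all libraries 51.7% of all tested IDs were lower, and the share without the pair is not given. Across all tested IDs the median log2 fold change was -0.02 with all libraries. A fit of the 11 medium libraries alone, with their own estimate of the spread, also called 0 IDs (610 at an unadjusted p-value under 0.05). The fold changes were close to those above, for example -2.21 at ENSG00000123358 and -1.53 at ENSG00000177606, and the adjusted p-values of the 13 were 0.2 to 0.263 (edgeR).

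The levels of the 13 IDs were next compared library by library. The pair that stood apart, hypoxia replicate 1 and normoxia replicate 3, each exceeded every library with SPP1 at all 13 IDs. They were the 2 highest medium libraries at 10 of the 13. Normoxia replicate 3 was the highest at 10 IDs, hypoxia replicate 1 at 2, and normoxia replicate 2 at 1. The 13 IDs had been called by a contrast that includes the pair, and all 13 calls were lost when either library of the pair was left out. These counts therefore describe the choice of IDs, and the matching shares of all IDs are not given. The libraries with and without SPP1 overlapped at 12 IDs and were fully separate at only 1, ENSG00000137193. Over all tested IDs, 20 (0.385%) had every library with SPP1 below every library without it. Against the 3 libraries outside the pair alone, 63 IDs (1.21%) had all libraries with SPP1 below and 51 (0.982%) all above.

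**Figure D2:**
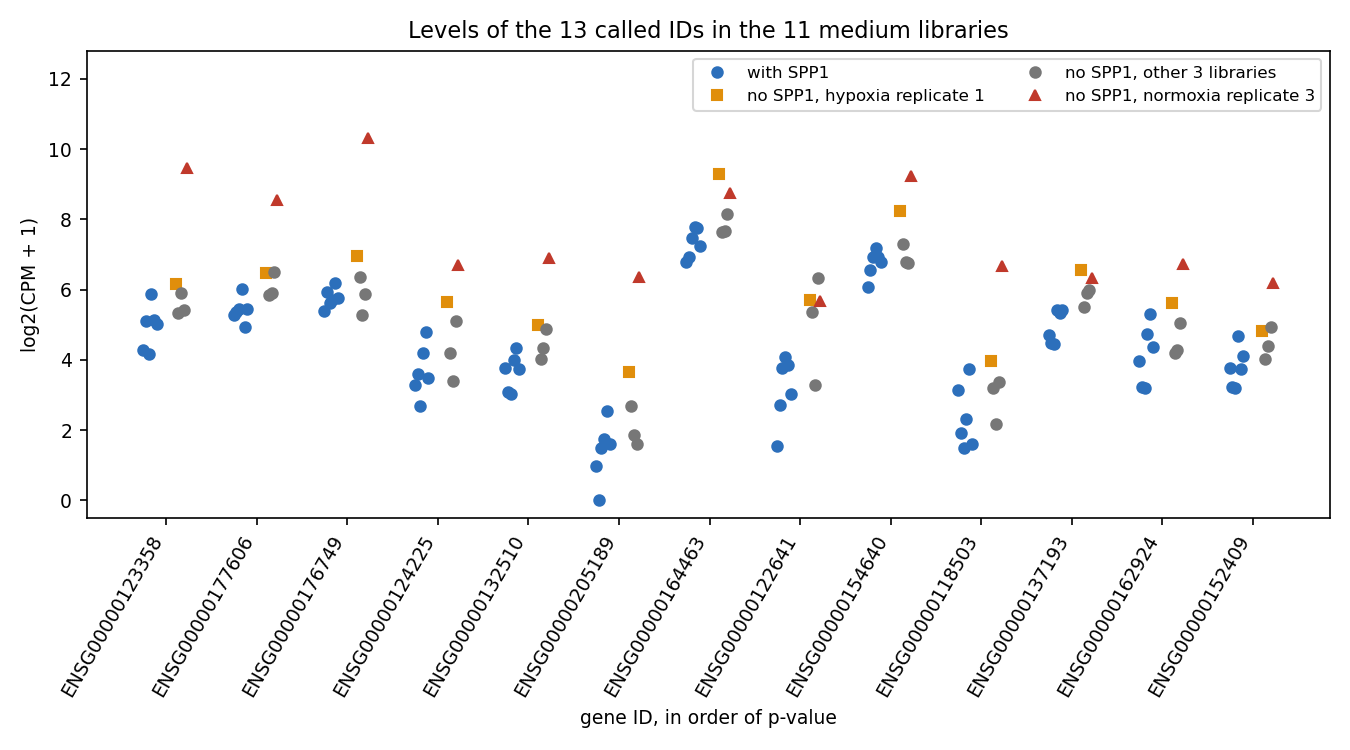
Levels of the 13 called IDs, as log2(CPM + 1), in the 6 medium libraries with SPP1 (blue) and the 5 without (gray circles, square and triangle), each point 1 library. The triangle (normoxia replicate 3) is the highest point at 10 IDs. The gray circles mostly lie among or just above the blue ones. At ENSG00000176749 that of hypoxia replicate 3 lies just below them, and at ENSG00000122641 those of normoxia and hypoxia replicate 2 lie well above.

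At 6 IDs more than 50% of the summed CPM of the 5 libraries without SPP1 came from medium normoxia no-SPP1 replicate 3. ENSG00000176749 was the most extreme, with 80.9% in that library. It had 1276 CPM there, 58.2 in normoxia replicate 2, and 124, 81.5 and 37.4 CPM in hypoxia replicates 1, 2 and 3. The libraries with SPP1 ran from 40.6 to 71.6 CPM with a median of 52.3. A single library thus lay far above all others, while hypoxia replicate 3 lay below every library with SPP1. The log2 fold change was -2.10 (SE 0.406, adjusted p 0.0115 in edgeR's quasi-likelihood test). It was -0.36 without that library and -0.13 (SE 0.325) without both libraries that stood apart.

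ENSG00000205189, the ID with the largest fold change, was similar. It had 80.2 CPM in normoxia replicate 3 and 11.6, 5.43 and 2.61 CPM in hypoxia replicates 1, 2 and 3, with 2.01 in normoxia replicate 2. With SPP1 it ran from 0 to 4.77 CPM with a median of 1.92, and normoxia replicate 2 and hypoxia replicate 3 lay within that range. Its log2 fold change of -3.20 (SE 0.643) became -1.07 without normoxia replicate 3 and -0.71 without the pair.

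ENSG00000123358 had 705.9 CPM in normoxia replicate 3 and 42.1 in normoxia replicate 2, against 70.9, 39.0 and 58.3 CPM in hypoxia replicates 1, 2 and 3. Its libraries with SPP1 ran from 17.1 to 57.1 CPM with a median of 32.5. The ranges of the other 4 libraries and of those with SPP1 overlapped, although 2 of the 4 lay above all with SPP1. It changed by -2.23 on the log2 scale (SE 0.413, adjusted p 0.0115, edgeR), by -0.67 without normoxia replicate 3 and by -0.57 (SE 0.368) without the pair.

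ENSG00000118503 had 101.8 CPM in normoxia replicate 3 and 9.36 in normoxia replicate 2, against 14.7, 8.15 and 3.48 CPM in hypoxia replicates 1, 2 and 3. With SPP1 it ran from 1.8 to 12.4 CPM with a median of 3.37. None of the 3 libraries outside the pair exceeded the highest library with SPP1. On the log2 scale the fold change went from -2.13 (SE 0.47, adjusted p 0.0301, edgeR) to -0.87 without normoxia replicate 3 and -0.56 (SE 0.471) without the pair.

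At ENSG00000177606 and ENSG00000132510 the share of that library was 56.3% and 55.6%. ENSG00000177606 had 374.6 CPM in it and 89.6 in normoxia replicate 2, with 87.1, 56.2 and 58.3 CPM in hypoxia replicates 1, 2 and 3, against 29.6 to 63.4 CPM (median 41) with SPP1. ENSG00000132510 had 117.2 CPM in it and 28.1 in normoxia replicate 2, with 30.8, 15.4 and 19.1 CPM in hypoxia replicates 1, 2 and 3, against 7.19 to 19.1 CPM (median 12.4) with SPP1. At both IDs normoxia replicate 2 lay above every library with SPP1, and hypoxia replicate 2 lay within their range. Their log2 fold changes were -1.55 (SE 0.299) and -1.75 (SE 0.35) with all libraries and -0.76 (SE 0.304) and -0.90 (SE 0.372) without the pair.

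A further 4 IDs had their highest level in normoxia replicate 3 but less than 50% of the CPM without SPP1 there. ENSG00000154640 was the most abundant, with 598.5 CPM in normoxia replicate 3 and 302.2 CPM in hypoxia replicate 1, against 107, 156.7 and 108.7 CPM in normoxia replicate 2 and hypoxia replicates 2 and 3. Its libraries with SPP1 ran from 66.8 to 143.4 CPM with a median of 114. Outside the pair, only hypoxia replicate 2 lay above the range with SPP1. The log2 fold change of -1.26 (SE 0.267, adjusted p 0.0192, edgeR) became -0.41 without normoxia replicate 3 and -0.15 without the pair.

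ENSG00000124225 had 102.5 CPM in normoxia replicate 3 and 49.3 in hypoxia replicate 1, with 33.4, 17.2 and 9.57 CPM in normoxia replicate 2 and hypoxia replicates 2 and 3, against 5.39 to 26.7 CPM (median 10.7) with SPP1. ENSG00000162924 had 104.6 and 47.8 CPM in the pair and 32.1, 17.2 and 18.3 CPM in the other 3, against 8.08 to 38.2 CPM (median 17.0). ENSG00000152409 had 71.2 and 27.0 CPM in the pair and 29.4, 15.4 and 20 in the other 3, against 8.08 to 24.6 CPM (median 12.5). At ENSG00000162924 the other 3 lay wholly within the range with SPP1, and at the remaining IDs only normoxia replicate 2 lay above it. Log2 fold changes of -1.75 (SE 0.341), -1.37 (SE 0.314) and -1.30 (SE 0.3) became -0.78, -0.51 and -0.80 without the pair.

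The last 3 IDs rested least on normoxia replicate 3. ENSG00000137193 had 93.3, 44.4 and 58.3 CPM in hypoxia replicates 1, 2 and 3 and 62.9 and 79.5 CPM in normoxia replicates 2 and 3. With SPP1 it ran from 20.7 to 42.0 CPM with a median of 32.1. Every library without SPP1 lay above every library with it. The log2 fold change was -1.17 (SE 0.264, adjusted p 0.0375, edgeR), and it stayed between -1.30 and -1.03 when any 1 library was left out. Without the pair it was -0.92 (SE 0.297). The call was nevertheless lost in 8 of 11 such fits.

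ENSG00000122641 had 79.6 CPM in normoxia replicate 2 and 50.2 in normoxia replicate 3, and 50.9, 39.9 and 8.7 CPM in hypoxia replicates 1, 2 and 3. With SPP1 it ran from 1.94 to 15.9 CPM with a median of 9.86. Of the 5 libraries without SPP1, 4 lay above the range with SPP1 and hypoxia replicate 3 lay within it. Its log2 fold change of -2.34 (SE 0.484, adjusted p 0.0159, edgeR) was the least altered without the pair, at -2.26 (SE 0.544). That estimate had an unadjusted p-value of 0.000206 in edgeR's quasi-likelihood test, and an adjusted p-value of 0.535, the highest over 19 alternatives that began at 3.07e-07. The 2 naive libraries had 448 CPM (replicate 1) and 23.4 CPM (replicate 2) of this ID, so that it differed widely between them without any macrophage medium. Naive replicate 1 was the higher at each of the other called IDs as well, for example 152.3 against 53.4 CPM at ENSG00000132510.

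ENSG00000164463 had 620.5 CPM in hypoxia replicate 1, 197.5 and 201.8 in hypoxia replicates 2 and 3, and 280.9 and 429.7 in normoxia replicates 2 and 3. With SPP1 it ran from 108.3 to 217.1 CPM with a median of 162. Hypoxia replicates 2 and 3 lay within that range and the remaining 3 libraries above it. Its log2 fold change was -1.11 (SE 0.223, adjusted p 0.0115, edgeR). Hypoxia replicate 1 moved it most, to -0.76, and it was -0.56 (SE 0.201) without the pair.

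**Figure D3:**
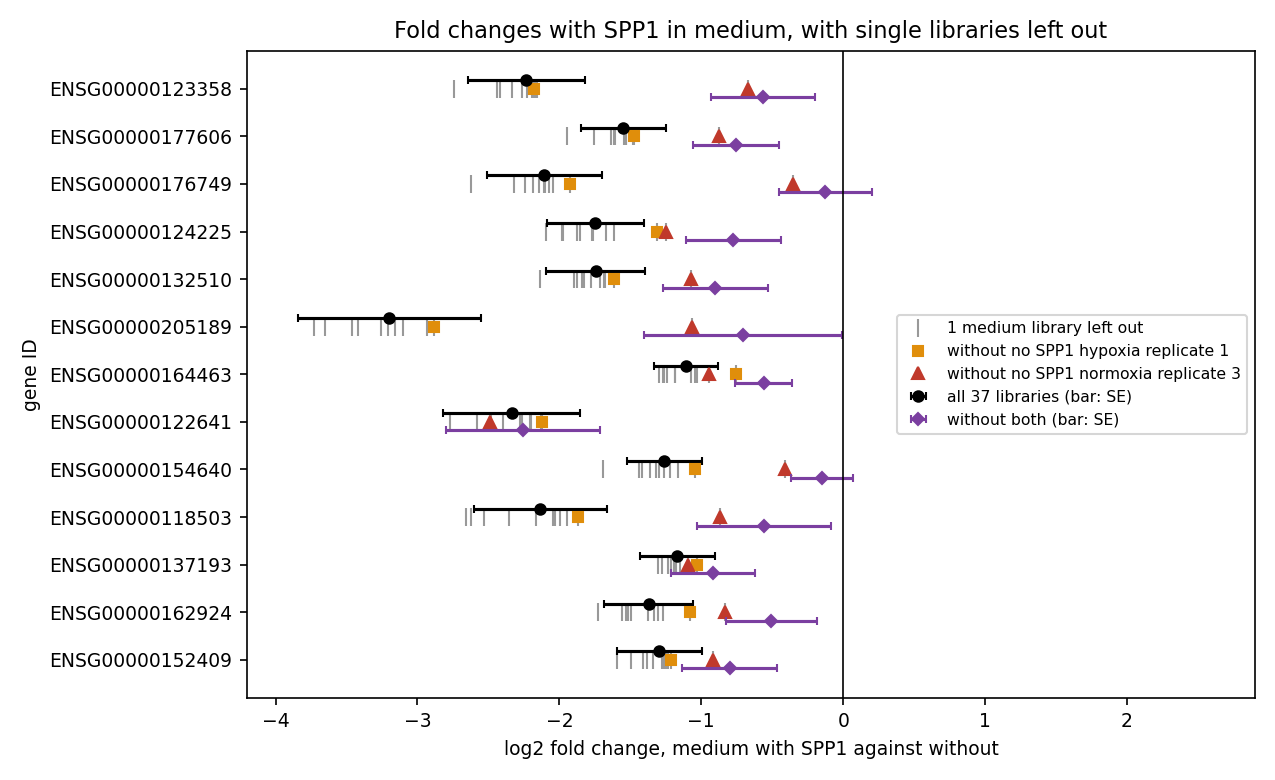
Log2 fold change with SPP1 for the 13 called IDs (black, with SE), with each medium library left out in turn (ticks) and without both libraries that stood apart (purple, with SE). All estimates lie below 0, and that of ENSG00000122641 without both, at -2.26, lies closest to its value with all libraries.

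Leaving out 1 medium library at a time showed how far the calls as a whole depended on single libraries. The 13 IDs had been chosen as lower with these same libraries, so a kept direction describes that choice. All 13 IDs stayed lower with SPP1 in all 11 fits, but 0 of the 13 kept their call in all 11. Without medium normoxia no-SPP1 replicate 3 all 13 calls were lost, with a median log2 fold change of -0.92 and adjusted p-values of 0.162 to 0.859 (edgeR). Without medium hypoxia no-SPP1 replicate 1 all 13 were lost as well, with a median of -1.47 and adjusted p-values of 0.0785 to 0.506. They were also all lost without medium normoxia SPP1 replicate 3, where the median was -1.61 and the adjusted p-values were 0.0687 to 0.183. In these 3 fits 0 IDs were called in all, and 326, 283 and 345 had an unadjusted p-value under 0.05.

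Other libraries without SPP1 had the opposite influence. With normoxia replicate 2 of that arm removed, so that normoxia replicate 3 was alone in its group, 94 IDs were called (31 higher, 63 lower), and without medium hypoxia no-SPP1 replicate 2 there were 28 (9 higher, 19 lower). All of the 13 calls were kept in both. Without single libraries with SPP1, 4 to 11 of the 13 were kept apart from the fit already named, and 12 were kept without medium hypoxia no-SPP1 replicate 3. Medium normoxia no-SPP1 replicate 2 moved the log2 fold change most at 29.1% of the 5193 IDs and medium normoxia no-SPP1 replicate 3 at 23.1%, the 2 libraries of the smallest group. Of the 13 called IDs, 10 were moved most by normoxia replicate 3, 2 by hypoxia replicate 1 and 1, ENSG00000122641, by a library with SPP1, medium hypoxia SPP1 replicate 3.

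**Figure D4:**
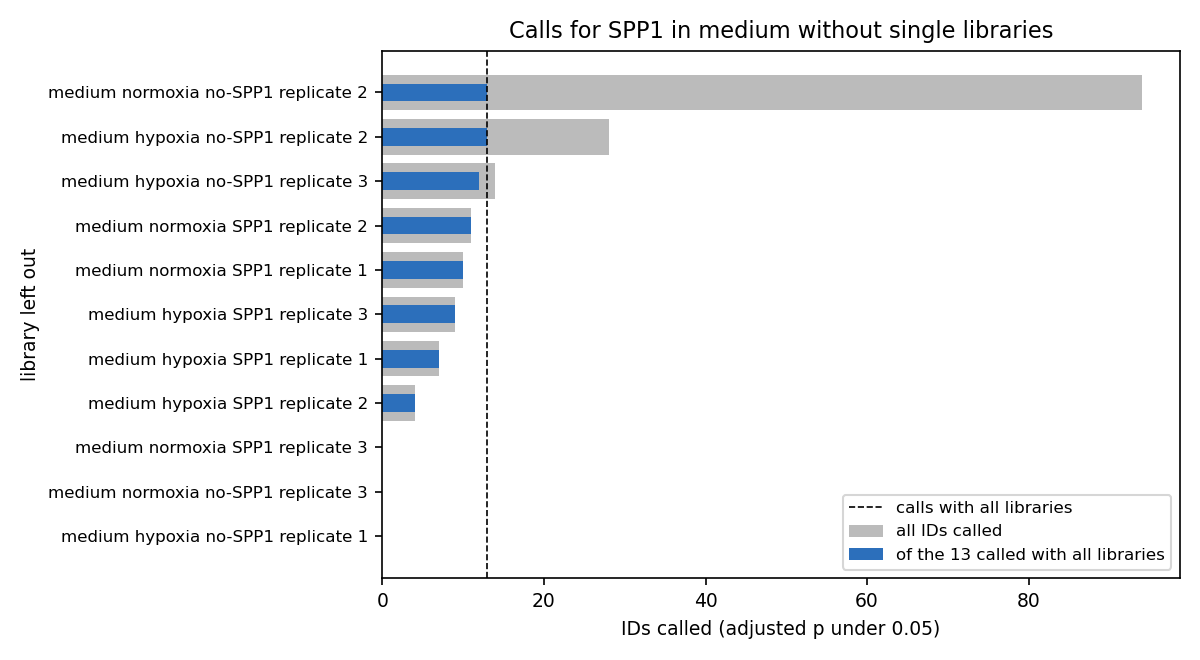
Number of IDs called for SPP1 in medium without each of the 11 medium libraries (gray bars) and how many of the 13 called with all libraries were among them (blue bars), beside the 13 calls with all libraries (dashed line). The counts run from 0 without any of 3 libraries to 94 without medium normoxia no-SPP1 replicate 2.

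The direction of the fold changes was seldom turned by 1 library. Of the 478 IDs at an unadjusted p-value under 0.05, 473 kept their direction in all 11 fits and 460 kept it without the pair, and 115 were still at an unadjusted p-value under 0.05 there. These IDs were chosen by the same contrast, so their counts are a description. The 20 IDs with no overlap and lower levels with SPP1 had a median log2 fold change of -0.76, from -2.80 to -0.47, and 1 of them was called. The 16 IDs with no overlap and higher levels (0.308%) had a median of 0.89, from 0.34 to 1.81, and 0 were called, with 11 at an unadjusted p-value under 0.05 (edgeR). Their medians without the pair were -0.75 and 0.64.

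In the main edgeR fit no ID was called higher with SPP1. DESeq2 on the same IDs called 9 higher and 25 lower, and edgeR on every ID with a count called 4 higher and 21 lower. Among abundant IDs not called, the smallest p-values for higher levels in the main fit belonged to ENSG00000083720 and ENSG00000178429. ENSG00000083720 had 12.0 and 6.28 CPM in normoxia replicates 2 and 3 and 22.4, 36.2 and 21.7 CPM in hypoxia replicates 1, 2 and 3 without SPP1, against 23.0 to 54.8 CPM (median 38.7) with it. Only hypoxia replicate 2 overlapped the libraries with SPP1. The log2 fold change was 1.29 (SE 0.33, adjusted p 0.111, edgeR). ENSG00000178429 had 12.7, 4.19, 9.25, 16.3 and 17.4 CPM in the same order, against 17.2 to 34.1 CPM (median 24.5), with an overlap only between the highest and the lowest library. Its log2 fold change was 1.19 (SE 0.332, adjusted p 0.184, edgeR). The lowest of the 5 at both IDs was medium normoxia no-SPP1 replicate 3, and without the pair their log2 fold changes were 1.03 (SE 0.398) and 0.77 (SE 0.368).

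The comparison was then made within each oxygen level. In normoxia, 3 libraries against 2, 6 IDs (0.116%) were called, all lower with SPP1 and all among the 13. They were ENSG00000123358, ENSG00000177606, ENSG00000176749, ENSG00000132510, ENSG00000205189 and ENSG00000118503, the same IDs at which normoxia replicate 3 held more than 50% of the CPM. Their log2 fold changes in normoxia ran from -3.70 to -2.22. The count was 0 without medium normoxia no-SPP1 replicate 3 (214 at an unadjusted p-value under 0.05, edgeR), 0 without medium normoxia SPP1 replicate 3 (189) and 0 without the pair (221). In hypoxia, 3 libraries against 3, edgeR called 0 IDs (0%), with 335 at an unadjusted p-value under 0.05 (6.45%), and DESeq2 called 4. The 335 became 89 without medium hypoxia no-SPP1 replicate 1 and 97 without the pair, with 0 calls in either (edgeR).

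All 13 IDs were lower with SPP1 at both oxygen levels, with a median log2 fold change of -2.22 in normoxia and -1.29 in hypoxia. An unadjusted p-value under 0.05 was seen for 13 of 13 in normoxia (5.68% of all IDs) and for 10 of 13 in hypoxia. The IDs had been called on the average of these same differences, so that the counts describe the choice and test nothing further. Over all IDs 53.1% and 49.2% were lower. The lowest unadjusted p-values in hypoxia among the 13 were those of ENSG00000164463 (log2 fold change -1.34, SE 0.304) and ENSG00000137193 (-1.55, SE 0.367), both with an adjusted p of 0.162 in edgeR. ENSG00000176749 differed most between the oxygen levels, at -3.50 (SE 0.599) in normoxia and -0.71 (SE 0.552) in hypoxia, and its difference of 2.80 (SE 0.806) had an adjusted p of 0.622. ENSG00000122641 had -2.39 (SE 0.677) in normoxia and -2.28 (SE 0.693) in hypoxia, a difference of 0.11 (SE 1.07). Over all IDs the test of such differences, the interaction of SPP1 with oxygen, called 0 of 5193 IDs in edgeR (189 at an unadjusted p-value under 0.05, 3.64%, and 103 with 0 calls without the pair) and 1 in DESeq2.

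The same contrast was set beside the arms in which splenocytes met the RAW264.7 cells. With SPP1 in the cells arm 0 IDs were called (87 at an unadjusted p-value under 0.05 in edgeR, 1.68%, and 0 calls in DESeq2), and in the washed arm 1 (0.0193%), which was not among the 13. The 13 IDs had a median log2 fold change of 0.04 in cells, 5 of them lower (49% of all IDs), and -0.10 in washed, 9 of them lower (50.5%), beside medians of 0.00644 and -0.00368 over all IDs. ENSG00000123358 was the only one of the 13 at an unadjusted p-value under 0.05 in the washed arm (10.1% of all IDs), at -0.94 (SE 0.354), and its value in cells was -0.04 (SE 0.351). Its washed libraries with SPP1 had 292.9, 979.7 and 671.2 CPM in hypoxia replicates 1, 2 and 3 and 260.1, 436 and 1143 in normoxia. Those without SPP1 had 863.7 to 1700 CPM. Hypoxia and normoxia replicate 1 with SPP1 had the smallest totals of the washed arm, 761571 and 691539 counts. On the second principal component (axis of variation) of all 37 libraries, they and normoxia replicate 2 with SPP1 lay at -54.39, -53.25 and -31.75. The other washed libraries lay at -7.86 to 18.5 and cells hypoxia no-SPP1 replicate 2 at -32.3. A fit without these washed libraries together was not made, so their joint weight was not tested. At ENSG00000122641 the log2 fold changes were 0.23 (SE 0.436) in cells and -0.10 (SE 0.465) in washed.

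The differences between arms were tested directly. Between medium and cells the effect of SPP1 differed at 0 IDs (255 at an unadjusted p-value under 0.05 in edgeR, 4.91%, and 0 calls in DESeq2), and between medium and washed at 0 IDs (538, 10.4%, and 24 calls in DESeq2). All 13 had an unadjusted p-value under 0.05 in both tests, with median differences of -1.91 and -1.60. Without the pair both counts were again 0 in edgeR, with 221 and 346 IDs at an unadjusted p-value under 0.05. These 13 had been chosen for their values in medium, which enter both differences. The smallest adjusted p among them was 0.21 against cells and 0.133 against washed. The washed side of the latter test includes the libraries with SPP1 that lay low on the second principal component.

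**Figure D5:**
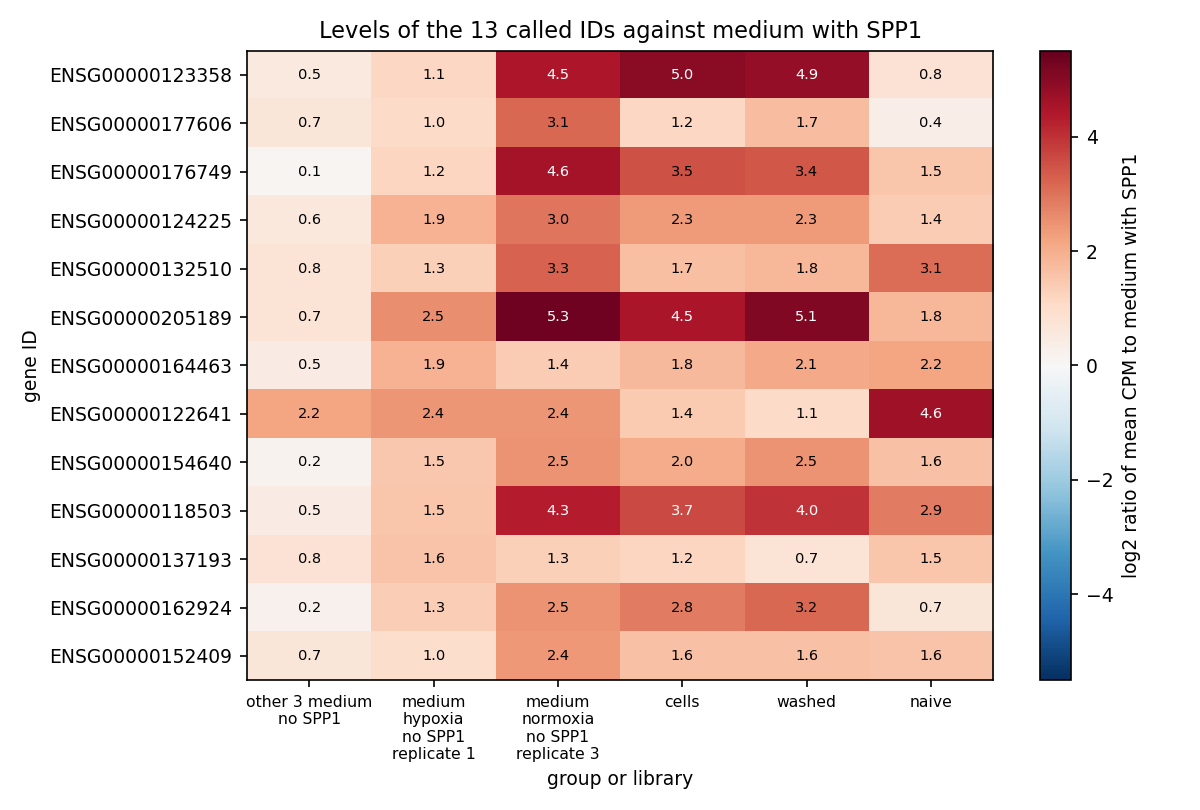
Level of the 13 called IDs as the log2 ratio of mean CPM to the mean of medium with SPP1, in the other 3 medium libraries without SPP1, each of the 2 libraries that stood apart, and the cells, washed and naive arms. All ratios are above 0, and the median fold over medium with SPP1 is 7.73 in normoxia replicate 3, 4.07 in cells and 5 in washed. The naive libraries differed widely at ENSG00000122641, and the ratios of ENSG00000205189 have a base of 1.99 CPM.

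The levels of the 13 IDs in the other arms are set beside these values. The cells, washed and naive libraries did not enter the contrast, but every ratio below has the same medium libraries with SPP1 as its base, at which the 13 IDs had been called low. Compared with the mean of medium with SPP1 their levels were 2.22- to 31.6-fold higher in cells with a median of 4.07-fold, and in washed the median was 5-fold. In the naive libraries they were 1.31- to 25.1-fold higher with a median of 3-fold. The 25.1-fold value, at ENSG00000122641, is from the mean of 448 CPM in naive replicate 1 and 23.4 in replicate 2. Against the same base they were 2.51- to 40.3-fold with a median of 7.73-fold in medium normoxia no-SPP1 replicate 3. In medium hypoxia no-SPP1 replicate 1 they were 1.97- to 5.8-fold with a median of 2.77-fold. The ratio was 1.09- to 4.54-fold with a median of 1.51-fold in the other 3 libraries without SPP1. The 40.3- and 5.8-fold values are those of ENSG00000205189, whose base of 1.99 CPM rests on 0 to 5 counts per library with SPP1. At 10 of the 13 IDs every cells library lay above every medium library with SPP1. Normoxia replicate 3 was at or above the lowest cells library at all 13 IDs and hypoxia replicate 1 at 7, while at least 1 of the other 3 libraries without SPP1 was so at 6. Of the 5193 tested IDs, 1130 were called higher in cells than in medium with SPP1 (edgeR), with all 13 among them. The shares of all IDs that meet the criteria of these library counts are not given, so the counts describe the 13 only.

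ENSG00000123358 had 473.4 to 1965 CPM in the 12 cells libraries and 17.1 to 57.1 CPM in the medium libraries with SPP1, and its 705.9 CPM in normoxia replicate 3 fell within the former range. ENSG00000176749 had 445 to 813 CPM in cells, below its 1276 CPM in that library. ENSG00000122641 had 16.8 to 41.5 CPM in cells, below 3 of the 5 medium libraries without SPP1. ENSG00000137193 had 50.5 to 101 CPM in cells and 26.5 to 97.1 in washed, both overlapping its 44.4 to 93.3 CPM in medium without SPP1. Whether material from RAW264.7 cells was present in any medium library was not tested, since no marker could be named.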

How the data were processed

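Per the series text, the authors trimmed the QuantSeq reads, aligned them to GRCh38 with STAR 2.7.10b, counted them with featureCounts (Rsubread 2.0.3) and deposited raw counts per gene. The annotation release, the handling of multiply aligned reads and the use of molecular identifiers were not given in the sources used here. The series text says that experiments were repeated independently, without tying replicate numbers to animals or cultures, so p-values measure the spread between these libraries, part of which may be technical.

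The analysis used edgeR 4.0.16 in R 4.3.3. Low IDs were removed with filterByExpr by group (minimum count 10), which kept 5193 of 22657 IDs with a count, or 97.8% to 99.4% of the counts of each library. Libraries were scaled by TMM, 13 group means were fitted to 37 libraries, and each contrast was given edgeR's quasi-likelihood test, with p-values adjusted by Benjamini-Hochberg. SEs were derived from the F statistic. The procedure was tested on simulated data in which all groups had the same spread and no library stood apart. That test does not cover the unlike replicates of medium without SPP1. DESeq2 1.42.0 was an alternative.

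The libraries, contrasts, lists and the pair set apart were chosen with earlier results of these data known. The IDs are human and 0 of 60708 occur in the reference table, which is a mouse one, so planned marker, pathway and promoter summaries were not made and no sequence is shown. The rule for named genes covered every called ID and the IDs with the smallest p-values not called with a mean of at least 16 CPM. With no names it allowed 2 IDs per direction. The other called IDs were named after their values were seen, so that the weight of single libraries could be given for each.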

Additional observations from a re-analysis of the deposited data

Results flagged for a closer look

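The levels of the 13 called IDs and of the 2 higher ones, the total counts and the positions between medium and cells were each examined for a single library far from the rest, among the 6 medium libraries with SPP1 and among the 5 without, by Dixon's criterion at the 95% level. Of 34 such sets of values 7 had one, where chance would give about 1 in 20 for sets chosen without regard to their values. Most sets were IDs called by the contrast that includes the same libraries, and their calls were lost without normoxia no-SPP1 replicate 3, so that the count of 7 is a description and cannot be read against that rate. All 7 were medium normoxia no-SPP1 replicate 3. It had 705.9 CPM of ENSG00000123358, where the next library without SPP1 had 70.9, 1276 CPM of ENSG00000176749, where the next had 124.1, and 374.6 CPM of ENSG00000177606, where the next had 89.6. It had 117.2 CPM of ENSG00000132510 (next 30.8), 101.8 CPM of ENSG00000118503 (next 14.65), 80.22 CPM of ENSG00000205189 (next 11.6) and 71.15 CPM of ENSG00000152409 (next 29.4). That library had the largest total count of the medium libraries, 1319225. Normoxia no-SPP1 replicate 2 had a total of 1301505, with 42.13 CPM of ENSG00000123358 and 58.18 CPM of ENSG00000176749. Whether depth had a part in the values of normoxia no-SPP1 replicate 3 was not tested.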

How the results depend on the processing

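RLE size factors, only IDs with a mean of at least 16 CPM, and every medium library weighted equally gave 11, 14 and 10 calls for SPP1 in medium, all lower, and 11, 13 and 10 of the 13 were among them. With every ID with a count (22657 tested) the calls were 25 in medium (4 higher, 21 lower), 21 in normoxia, 7 in hypoxia, 5 for the interaction with oxygen, 6 in cells, 43 in washed, 9 for medium against cells and 60 for medium against washed. With DESeq2 they were 34 in medium (9 higher, 25 lower, all 13 among them), 13, 4, 1, 0, 11, 0 and 24 in the same order. A fit of only the libraries compared called 0 in medium (610 at an unadjusted p-value under 0.05 in edgeR), 0 in normoxia (384) and 0 in washed (324). Without the pair of medium libraries that stood apart, which left the normoxia no-SPP1 group with 1 library assumed to vary like the other groups, edgeR called 0 in medium (268) and 0 in normoxia (221).

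With 1 library left out at a time, counts ran from 0 to 94 in medium, 0 to 46 in normoxia, 0 to 2 in hypoxia, 0 to 1 for the interaction, 0 to 154 in washed, 0 to 9 for medium against cells and 0 to 97 for medium against washed. The removal of medium normoxia no-SPP1 replicate 2 gave the highest counts in medium, in normoxia, for medium against cells and, level with that of medium normoxia SPP1 replicate 2, for the interaction, that of medium hypoxia no-SPP1 replicate 2 in hypoxia, and that of washed normoxia SPP1 replicate 3 in the comparisons with washed. In medium the count was below 13 by over 1.5 times also without medium hypoxia SPP1 replicates 1 (7) and 2 (4). The cause of these shifts was not tested. Over all alternatives for the 15 named IDs, 184 kept direction and side of the threshold, 97 kept direction but lost the call, 3 gained one and 0 reversed.

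Replicate numbers were not used as pairs in the main fit. Of 15 same-number pairs of medium libraries 4 had a correlation of deviations over 0.1 (range -0.477 to 0.21). Over 30 different-number pairs the range was -0.407 to 0.477. In the group of 2 libraries the deviations mirror each other, so these correlations cannot decide whether a number marks a shared batch. Nothing in the labels ties a number to a shared animal or day. With the replicate number as a block, 14 IDs were called in medium, all lower and with all 13 among them, 7 in normoxia, 0 in hypoxia (356 at an unadjusted p-value under 0.05 in edgeR) and 0 in washed (515).

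At these totals, IDs at a few CPM rest on a handful of reads and carry wide counting error, among them the called ENSG00000205189 and ENSG00000118503.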
